A study of Mus musculus with 8 samples.

Results

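The skin epithelium miRNAs miR-203, miR-205 and miR-31 were followed through both arms of their hairpins, which makes 6 members (mmu-miR-203-3p, mmu-miR-203-5p, mmu-miR-205-5p, mmu-miR-205-3p, mmu-miR-31-5p and mmu-miR-31-3p) of the 1881 mouse miRNAs on the array. They were chosen by name, as microRNAs (miRNAs, short RNAs that repress messenger RNAs through base pairing) of stratified epithelium, and all 6 were present on the array. They were measured in exosomes, small membrane vesicles released by cells, which had been separated from mouse amniotic fluid on a size-exclusion column. The LPS group holds 4 samples of preterm birth brought on by lipopolysaccharide (LPS, a bacterial outer membrane component that triggers inflammation). It was injected into the abdomen on pregnancy day 14, at a dose of 100 μg/kg, and birth came some 48 h afterwards. The cesarean group holds 4 samples taken at cesarean section and serves as the control. All 8 samples are labelled day 17 of pregnancy, a label at odds with the injection day and delay given for LPS, so equal gestational age of the groups is not established. Strain, sex of the fetuses, any injection of the control mice and whether each sample is a separate animal or litter are not stated in the labels. The p-values therefore measure the spread between these samples, which may in part be technical.

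In mouse skin, miR-203 is switched on as basal keratinocytes leave the proliferating layer, and it represses the basal transcription factor p63. miR-205 is abundant in basal and stem cells of stratified epithelia and, with the miR-200 family, represses the ZEB factors that oppose the epithelial state. miR-31 is known from proliferating keratinocytes, from wounds and from psoriatic skin. Fetal skin is in direct contact with amniotic fluid, and so are the amnion and the linings of mouth, airway and gut, so the 3 miRNAs do not mark one source.

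The mature sequences are shown first because each miRNA recognises its targets through its own seed, bases 2 to 8 from the 5′ end, given here in capitals. They were taken from RefSeq (GRCm38.p6), where all 6 names were found.
miR-203-3p: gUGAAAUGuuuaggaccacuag
miR-203-5p: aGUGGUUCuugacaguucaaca
miR-205-5p: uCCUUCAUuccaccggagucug
miR-205-3p: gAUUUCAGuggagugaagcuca
miR-31-5p: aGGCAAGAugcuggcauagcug
miR-31-3p: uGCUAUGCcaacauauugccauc
The 6 seeds all differ. Among the 1608 array miRNAs with a sequence under the same name in RefSeq, 0 others carried any of the 6 seeds, so the members have no seed relative in this comparison.

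The 3 hairpins are shown next because the arms of one hairpin come from the same transcript yet were detected so differently on the arrays. Capitals mark the arm that was detected on all 8 arrays.
Mir203: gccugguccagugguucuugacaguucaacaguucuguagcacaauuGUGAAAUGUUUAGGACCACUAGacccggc
Mir205: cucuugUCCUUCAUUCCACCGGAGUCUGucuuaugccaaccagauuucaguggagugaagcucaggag
Mir31: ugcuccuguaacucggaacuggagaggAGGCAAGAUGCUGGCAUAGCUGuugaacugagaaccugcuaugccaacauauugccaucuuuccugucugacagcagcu
Mir203 lies on chromosome 12, plus strand, and overlaps the annotated miRNA gene Gm51289. Mir205 lies on chromosome 1, minus strand, within the long non-coding RNA gene Mir205hg. Mir31 lies on chromosome 4, minus strand, within the long non-coding RNA gene Gm49890. The detected arm is the 3p arm for Mir203 and the 5p arm for Mir205 and Mir31.

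The probes that stand for the 3 detected arms are shown because they set which bases were measured, in each case the 3′ part of the miRNA.
miR-203-3p probe: ctagtggtcctaaacatt
miR-205-5p probe: cagactccggtggaat
miR-31-5p probe: cagctatgccagcatct
They pair with bases 5 to 22 of miR-203-3p, 7 to 22 of miR-205-5p and 6 to 22 of miR-31-5p. In the array files, which use build mm9, they are placed at chr12:113369143-113369159, chr1:195333670-195333684 and chr4:88556494-88556509. These intervals are as the files give them and run 1 base shorter than the stretches paired. The complementary stretch of each probe was found in 0 other mature mouse miRNAs of the table.

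All values below are on a scaled log2 scale. The background-subtracted intensity of a probe was divided by a 75th percentile, taken per array over 618 probes that every array detected, and signals under a common floor of 13.5 (3.75 on the log2 scale) were raised to it. Probes differ in how strongly they bind, so levels are compared between arrays and not between miRNAs. The arrays detected 405 to 519 miRNAs in LPS samples and 413 to 554 in cesarean samples. The scaling percentile averaged 8.06 ± 0.42 over the LPS group and 8.20 ± 0.51 over the cesarean group (log2, SD, n = 4 each). The 4 spike-in probes averaged 10.96 ± 0.086 on LPS arrays and 10.98 ± 0.061 on cesarean arrays. All 8 arrays lay on 1 slide, LPS samples in its first row and cesarean samples in its second, so slide row and group cannot be told apart.

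The 3 lead arms were present in every sample, whereas the opposite arms were at or under the detection limit. miR-203-3p, miR-205-5p and miR-31-5p were well above background on 4 of 4 LPS arrays and 4 of 4 cesarean arrays. miR-203-5p had 0 replicate spots well above background on any array. Its scaled signal, on the linear scale, was 8.25, 4.35, 3.26 and 1.77 in LPS replicates 1 to 4, against 1.6, 1.68, 1.75 and 0.864 in cesarean replicates 1 to 4. The highest of these, on LPS replicate 1, is still under the floor, so the LPS and cesarean signals of this arm have no usable order. miR-205-3p was also well above background on 0 of 8 arrays, and its background-subtracted intensity was negative on every one, from -2.42 to -0.967. miR-31-3p came closest to detection, with signals of 9.95, 12.1, 12.1 and 10.5 on LPS arrays, against 7.20, 12.6, 6.21 and 11.2 on cesarean arrays. It was well above background on LPS replicate 3, in 15 of 15 spots, and on cesarean replicate 2, in 14 of 14 spots, and all its values lay under the common floor. These 3 arms were not tested.

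mmu-miR-203-3p had the widest spread of the members with LPS and a narrow one at cesarean section. Its level was 10.72, 6.75, 8.56 and 6.88 in LPS replicates 1 to 4, against 6.24, 6.90, 6.84 and 6.96 in cesarean replicates 1 to 4. LPS replicates 1 and 3 were above every cesarean array, and LPS replicates 2 and 4 lay among the cesarean values. Set against the cesarean mean, LPS replicate 1 was 15.8-fold higher and LPS replicate 3 was 3.54-fold higher, while LPS replicates 2 and 4 were at 1.01-fold and 1.1-fold. The means were 8.23 ± 1.85 with LPS and 6.74 ± 0.33 at cesarean section (SD, n = 4 each). Their difference of 1.49 ± 0.75 (SE), or 2.81-fold with a 95% interval from 0.885-fold to 8.91-fold, did not pass the test (limma adjusted p = 0.241, unadjusted p = 0.0744). It rested in large part on 1 array: without LPS replicate 1 the difference was 0.66 (adjusted p = 0.32).

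mmu-miR-205-5p showed LPS arrays on both sides of the cesarean group. Its level was 7.82, 4.97, 7.16 and 4.997 in LPS replicates 1 to 4, against 6.57, 6.90, 5.60 and 6.54 in cesarean replicates 1 to 4. LPS replicates 1 and 3 were above all cesarean arrays and LPS replicates 2 and 4 below all of them, so no LPS array fell within the cesarean range. In folds of the cesarean mean, the LPS arrays stood at 2.67, 0.370, 1.69 and 0.378. The means were 6.23 ± 1.47 with LPS and 6.40 ± 0.56 at cesarean section, a difference of -0.17 ± 0.63 (SE) that did not pass the test (0.891-fold, 95% interval from 0.335-fold to 2.37-fold, limma adjusted p = 0.901). This interval leaves room for a change of more than 2-fold either way. The sign itself was not stable, since the difference was 0.26 without LPS replicate 2, 0.25 without LPS replicate 4 and 0.058 with the normexp background correction.

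mmu-miR-31-5p behaved otherwise, with close LPS arrays and more scattered cesarean arrays. Its level was 6.40, 6.61, 6.57 and 5.83 in LPS replicates 1 to 4, against 5.68, 6.43, 4.72 and 5.69 in cesarean replicates 1 to 4. The groups overlapped through cesarean replicate 2 alone, which was above LPS replicates 1 and 4, and the other 3 cesarean arrays were below every LPS array. The means were 6.35 ± 0.36 with LPS and 5.63 ± 0.70 at cesarean section. The difference of 0.72 ± 0.36 (SE), or 1.65-fold with a 95% interval from 0.950-fold to 2.86-fold, did not pass the test (limma adjusted p = 0.237, unadjusted p = 0.0707). Without cesarean replicate 3, the lowest array, it was 0.42 (adjusted p = 0.482), and with the normexp background correction 0.37 (adjusted p = 0.294).

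**Figure D1:**
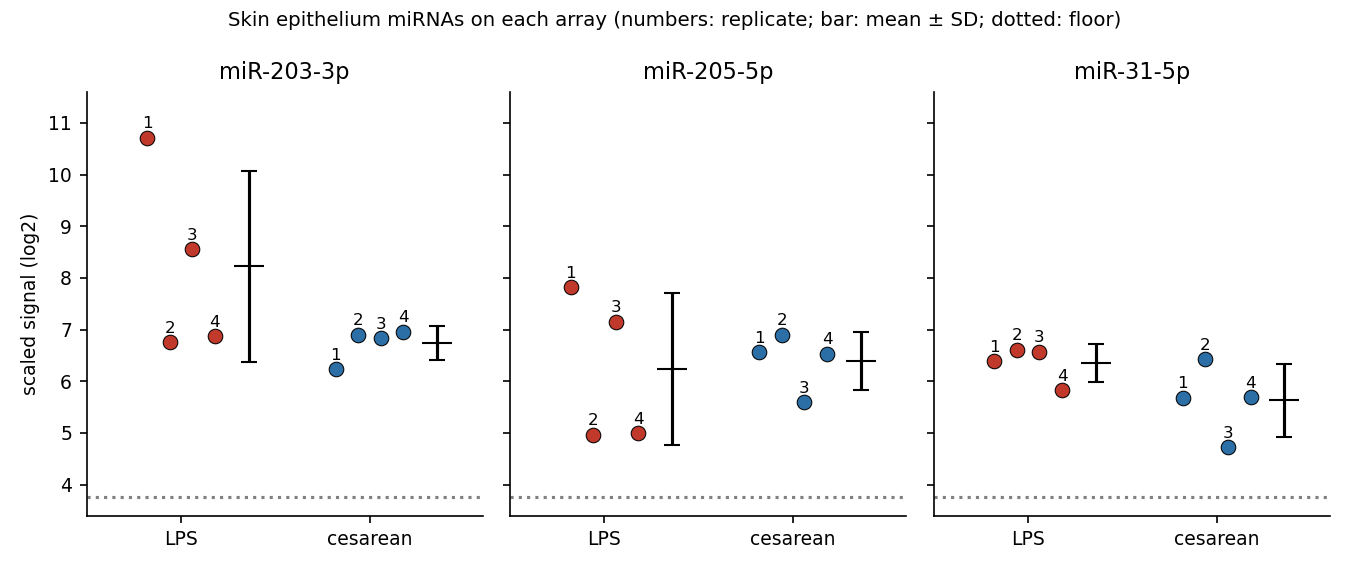
Scaled log2 signal of miR-203-3p, miR-205-5p and miR-31-5p on each array, LPS at the left and cesarean at the right of each panel; points are arrays with their replicate number, bars are mean ± SD of 4 arrays, and the dotted line is the floor of 3.75. LPS replicates 1 and 3 were the 2 highest arrays for miR-203-3p and for miR-205-5p, whereas miR-31-5p reached its lowest level, 4.72, on cesarean replicate 3.

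Thus 0 of the 3 tested members passed an adjusted p of 0.05, and 0 passed an unadjusted p of 0.05. Of the 470 miRNAs tested, 23 or 4.89% passed the adjusted threshold, 2.55% higher and 2.34% lower with LPS. The unadjusted threshold was passed by 25.1%, 13.8% higher and 11.3% lower with LPS. The groups did not overlap for 0 of the 3 members, against 17.0% of all tested miRNAs. A call of 0 in 3 is near this background and is not a result about the members.

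Each lead arm was also read by a second, dimmer probe. With it, miR-203-3p gave 9.44, 5.50, 7.25 and 5.65 on LPS arrays, against 4.99, 5.65, 5.52 and 5.74 on cesarean arrays. The other miR-205-5p probe gave 6.93, 4.23, 6.38 and 4.28 on LPS arrays, against 5.70, 6.18, 4.80 and 5.77 on cesarean arrays. For both miRNAs LPS replicates 1 and 3 were again above every cesarean array, and for miR-205-5p LPS replicates 2 and 4 again below every one. The differences between groups with these probes were 1.48, -0.16 and, for miR-31-5p, 0.75. The second miR-31-5p probe was not well above background on cesarean replicate 3, where 3.89 was also the lowest of its values. Replicate spots of the brighter probe on one array varied less than the arrays did. Their SD had a median of 0.10 for miR-203-3p, 0.11 for miR-205-5p and 0.16 for miR-31-5p. At its highest it was 0.21, 0.31 and 0.24. For miR-31-5p on LPS arrays it was 0.15 to 0.21, beside an SD of 0.36 over those arrays.

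Among all tested miRNAs, miR-203-3p and miR-205-5p were among those with the widest spread over the LPS arrays. The SD over LPS arrays was 1.85 for miR-203-3p, and 8 of the 470 tested miRNAs had a larger one. For miR-205-5p it was 1.47, with 20 larger, and for miR-31-5p 0.36, with 301 larger. The median over all tested miRNAs was 0.45 over the LPS arrays and 0.35 over the cesarean arrays. Over the cesarean arrays, 249 miRNAs had a larger SD than the 0.33 of miR-203-3p, 86 a larger one than the 0.56 of miR-205-5p and 42 a larger one than the 0.70 of miR-31-5p. The ratio of the SD with LPS to that at cesarean section was 5.56 for miR-203-3p, 2.63 for miR-205-5p and 0.512 for miR-31-5p. From the lowest to the highest array, miR-203-3p spanned 15.6-fold with LPS and 1.65-fold at cesarean section. For miR-205-5p the span was 7.21-fold with LPS and 2.47-fold at cesarean section, and for miR-31-5p 1.71-fold with LPS and 3.27-fold at cesarean section. No test of these spreads was made.

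**Figure D2:**
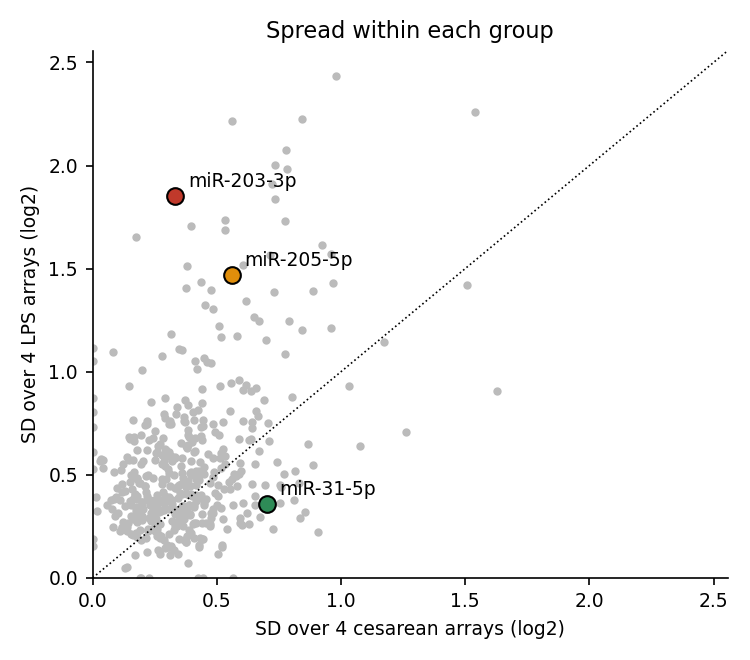
SD over the 4 LPS arrays (vertical) against SD over the 4 cesarean arrays (horizontal), both on the log2 scale, for the 470 tested miRNAs; the dotted line marks equal spread. miR-203-3p (1.85 against 0.33) and miR-205-5p (1.47 against 0.56) lie above the line, and miR-31-5p (0.36 against 0.70) lies below it.

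The 8 miRNAs with a larger LPS spread than miR-203-3p, singled out after their values were seen, ran in opposite directions across the LPS arrays. The liver miRNA miR-122-5p had levels of 8.27, 5.04, 9.81 and 5.56 in LPS replicates 1 to 4, against 3.75, 7.02, 3.75 and 4.97 in cesarean replicates 1 to 4. The striated muscle miRNA miR-206-3p had levels of 8.45, 5.02, 9.54 and 5.47 in LPS replicates 1 to 4, against 6.46, 6.15, 7.33 and 7.16 in cesarean replicates 1 to 4. Both were highest on LPS replicates 1 and 3 within that group, as miR-203-3p and miR-205-5p were. The other 6 (miR-3472, miR-467f, miR-466q, miR-690, miR-669p-3p and miR-466h-3p) were lowest within the LPS group on replicate 1, the array where miR-203-3p and miR-205-5p were highest.

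Ratios of 2 tested members within an array are free of the scaling between arrays and show whether the members moved together. The ratio of miR-203-3p to miR-205-5p, as a log2 difference from its cesarean mean, was 2.56, 1.45, 1.07 and 1.54 in LPS replicates 1 to 4, against -0.66, -0.34, 0.90 and 0.092 in cesarean replicates 1 to 4. All 4 LPS arrays were above all 4 cesarean arrays. The ratio was 3.15-fold higher with LPS (log2 difference 1.66; SD 0.64 with LPS and 0.68 at cesarean section, n = 4 each). The two-sided exact permutation p was 0.0286, the smallest that 70 allocations can give, and 0.0857 after adjustment over the 3 ratios. A ratio that reaches this smallest p alone cannot get under 0.0857, so the adjusted test could not decide here. For miR-203-3p set over each of the other 469 tested miRNAs in turn, 18.3% of the ratios showed no overlap, in each case with the LPS arrays above. For miR-205-5p the share was 0.426%, 2 of 469 ratios, and 0.213%, 1 of 469, had the LPS arrays above. The ratio with the LPS arrays below was that over miR-203-3p, which is the pair described above, inverted. For miR-31-5p the share was 14.1%, and 13.6% with the LPS arrays above. Some of the other miRNAs had values at the floor, such as miR-215-5p on all 4 cesarean arrays. Ratios over these are not free of the scaling.

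The ratio of miR-203-3p to miR-31-5p gave 3.21, -0.96, 0.88 and -0.065 on LPS arrays, against -0.55, -0.64, 1.01 and 0.17 on cesarean arrays. The groups overlapped (log2 difference 0.77, exact permutation p = 0.543, adjusted 0.543), and without LPS replicate 1 the difference was -0.049. The ratio of miR-31-5p to miR-205-5p gave -0.65, 2.41, 0.19 and 1.61 on LPS arrays, against -0.11, 0.30, -0.11 and -0.079 on cesarean arrays. LPS replicates 2 and 4 were above every cesarean array, and LPS replicate 1 below every one. Its difference of 0.89 did not pass (exact permutation p = 0.343, adjusted 0.514), and it was 1.40 without LPS replicate 1 and 0.38 without LPS replicate 2. The SD of this ratio was 1.38 with LPS and 0.20 at cesarean section, where both miRNAs were highest on replicate 2 and lowest on replicate 3.

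**Figure D3:**
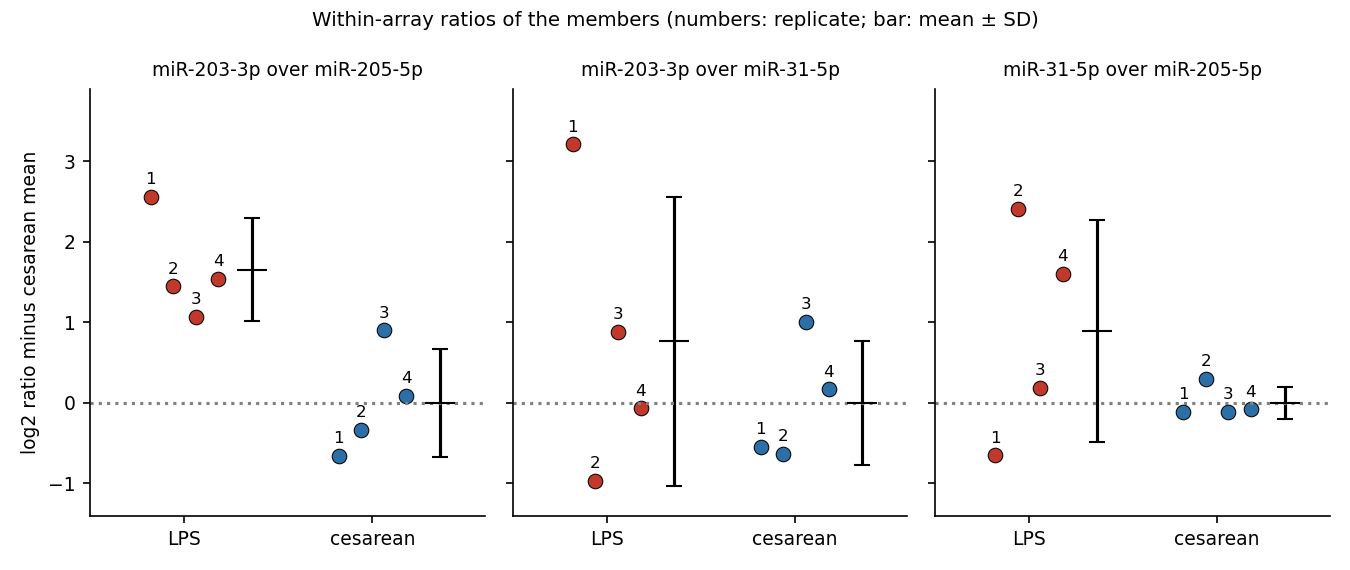
Log2 ratio of each pair of members within an array, less the mean of the cesarean arrays, LPS at the left and cesarean at the right of each panel; points are arrays with their replicate number and bars are mean ± SD of 4 arrays. The ratio of miR-203-3p to miR-205-5p separates the groups, from 1.07 upward with LPS and up to 0.90 at cesarean section, and the other ratios overlap.

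The miRNAs whose profile over the 8 arrays was most like that of each member were found by the root mean square (RMS) difference of the log2 profiles, each centred on its own mean. For miR-205-5p, which had an RMS about its own mean of 0.967, the nearest were miR-1a-3p (0.498), a miRNA of striated muscle, miR-128-3p (0.552) and miR-3077-5p (0.569), against a median of 1.09 over all tested miRNAs. miR-1a-3p had levels of 7.65, 4.88, 7.75 and 5.12 on LPS arrays, against 5.81, 7.11, 5.80 and 5.52 on cesarean arrays. Its high and low LPS arrays were those of miR-205-5p, while its cesarean arrays kept another order. For miR-31-5p (own RMS 0.603) the nearest were miR-425-5p (0.261), miR-15a-5p (0.282) and miR-500-3p (0.296), against a median of 0.784. miR-425-5p had levels of 5.999, 6.10, 6.27 and 5.59 on LPS arrays, against 5.07, 5.48, 4.55 and 5.60 on cesarean arrays, and cesarean replicate 3 was lowest for it too.

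For miR-203-3p the nearest profiles were farther off. Its own RMS was 1.37, and the nearest were miR-215-5p (0.852), miR-6907-5p (0.902) and the red cell miRNA miR-451a (0.915), against a median of 1.49. miR-215-5p was well above background on 3 of the 8 arrays, and its 4 cesarean values lay at the floor. miR-451a had levels of 14.90, 13.76, 14.56 and 14.13 on LPS arrays, against 13.09, 13.32, 13.06 and 13.92 on cesarean arrays, highest on LPS replicates 1 and 3 but over a smaller range. miR-205-5p itself stood at 1.0 from miR-203-3p, with 7 tested miRNAs nearer. miR-31-5p stood at 1.26 from miR-203-3p, with 80 nearer. Between miR-31-5p and miR-205-5p the RMS difference was 0.962, with 354 tested miRNAs nearer to miR-31-5p. These are descriptions over 8 arrays that share 1 slide and 1 scaling.

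**Figure D4:**
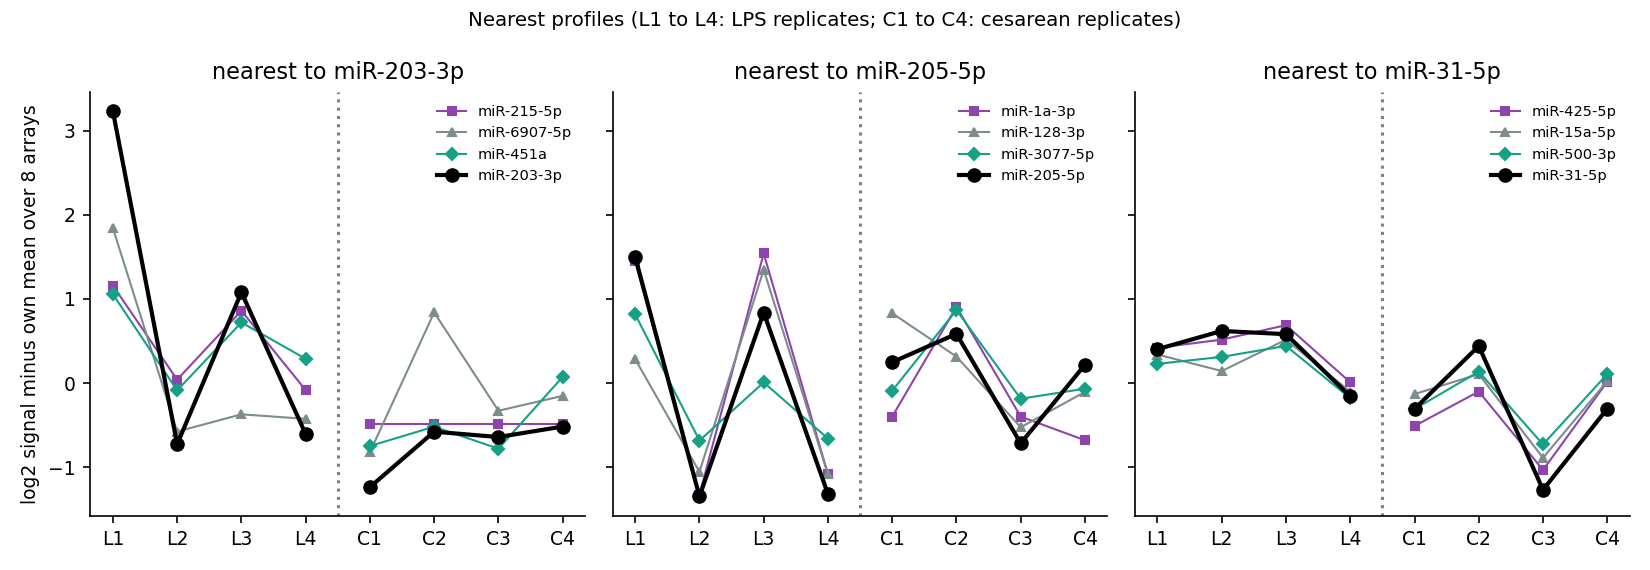
Centred log2 profiles over the 8 arrays (L1 to L4, LPS replicates; C1 to C4, cesarean replicates; vertical axis, log2 signal less the miRNA's own mean) of each member in black and of its 3 nearest tested miRNAs in colour. The profiles beside miR-31-5p lie close to it (RMS 0.261 to 0.296), and those beside miR-203-3p do not reach its height on L1 (RMS 0.852 to 0.915).

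Other epithelial miRNAs were set beside the members. The miR-200 family, 5 miRNAs that keep cells epithelial by repressing ZEB factors, had 5 of 5 members tested, and 3 rose with LPS while 0 fell, against 2.55% higher and 2.34% lower over all tested miRNAs. The risen ones were miR-200c-3p (2.68-fold, log2 1.42 ± 0.23 SE, limma adjusted p = 0.0107), miR-200b-3p (2.11-fold, 1.08 ± 0.25, adjusted p = 0.041) and miR-200a-3p (2.35-fold, 1.23 ± 0.30, adjusted p = 0.0449). All 3 calls were lost without scaling, with spike-in scaling, with no filter, with slide column as a block (limma adjusted p from 0.0867 to 0.17) and without cesarean replicate 3 (0.0554 to 0.111). Leaving out LPS replicate 2 or 3, or cesarean replicate 1, 2 or 4, left 1 of the 3 calls. The difference stayed above 0 in all 23 alternatives, from 0.81 to 1.52 over the 3 miRNAs, and miR-200c-3p passed in 18 of them, miR-200b-3p in 10 and miR-200a-3p in 8. The median difference was 1.23 over the family and -0.057 over all 470 tested miRNAs. The mean level of the 5 was 8.20, 8.28, 8.20 and 7.60 on LPS arrays, against 6.68, 7.09, 6.54 and 7.06 on cesarean arrays. In this mean, LPS replicates 1 and 3, far apart from 2 and 4 for miR-203-3p and miR-205-5p, were not set apart. They were still the 2 highest LPS arrays for miR-200a-3p (7.80, 7.34, 7.48 and 6.74) and miR-200b-3p (10.06, 9.45, 9.59 and 9.09). The same held for miR-429-3p (8.41, 8.21, 8.39 and 8.01), whereas miR-200c-3p and miR-141-3p were highest on LPS replicate 2.

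In the miR-183 cluster, known from sensory and epithelial cells, 3 of 3 miRNAs were tested and 0 passed, with a median difference of 1.09. Its smallest p was that of miR-183-5p, at 7.17 ± 0.29 with LPS and 6.08 ± 0.59 at cesarean section (2.13-fold, limma adjusted p = 0.0702). Of 13 further miRNAs studied in epidermis and keratinocytes, 12 were tested and 0 passed. Of these, 6 had a higher and 6 a lower mean with LPS, with a median difference of -0.025. Most of them are expressed in many tissues. miR-125b-5p, abundant in skin stem cells, had the smallest p of that list, at 9.65 ± 0.40 with LPS and 10.60 ± 0.40 at cesarean section (0.519-fold, adjusted p = 0.0771). miR-184-3p, an epithelial miRNA best known from cornea, was well above background on 0 of 8 arrays. Of 6 dermal and mesenchymal miRNAs, 6 were tested and 0 passed, with a median difference of -0.93. miR-199a-5p had the smallest p there, at 7.77 ± 0.36 with LPS and 8.80 ± 0.41 at cesarean section (0.491-fold, adjusted p = 0.064).

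Markers of other cell types moved with some arrays, and their part in the values of the members was not tested. The 3 striated muscle miRNAs, all tested, averaged 7.78, 4.88, 8.49 and 5.15 on LPS arrays, against 5.90 to 6.80 on cesarean arrays. LPS replicates 1 and 3 were high and 2 and 4 low, as for miR-205-5p. Replicates 1 and 3 were also the 2 highest LPS arrays in the red cell list (9.38, 8.78, 9.32 and 9.12). The same held for the kidney and intestine list (6.36, 6.17, 6.68 and 5.98). It held too for the dermal and mesenchymal list (7.89, 7.12, 7.63 and 7.12) and the epidermis and keratinocyte list (8.43, 8.18, 8.39 and 7.86). The leukocyte list was highest on LPS replicates 3 and 2, and the miR-183 cluster was lowest on LPS replicate 1. The 3 red cell miRNAs, all tested, had mean levels from 8.78 to 9.38 with LPS and from 7.92 to 8.60 at cesarean section. Of them miR-144-3p passed as higher, at 4.89 ± 0.16 with LPS, and was well above background on 0 of 4 cesarean arrays (limma adjusted p = 0.0175). It entered the test through the LPS group alone, and its cesarean values all lay at the floor, with an SD of 0. The difference and its p therefore depend on the floor. With a lower floor the difference was 2.14 (limma adjusted p = 0.000722), and with a floor 2 times as high it was 0.14 (0.366). Of 5 leukocyte miRNAs, 3 were tested, and their mean ranged from 6.92 to 7.52 with LPS and from 6.62 to 7.03 at cesarean section, with miR-142a-3p passing as higher (2.34-fold, adjusted p = 0.0325). The miR-142a-3p value on cesarean replicate 3 lay at the floor. With a lower floor its log2 difference was 1.38 (limma adjusted p = 0.043), and with a floor 2 times as high it was 0.53 (0.195). The 3 kidney and intestine miRNAs, all tested, ranged from 5.98 to 6.68 with LPS and from 4.64 to 5.20 at cesarean section. Of these, miR-194-5p (4.54-fold, adjusted p = 0.0107) and miR-192-5p (2.29-fold, adjusted p = 0.0268) passed as higher. The miR-194-5p value on cesarean replicate 3 also lay at the floor. Its log2 difference was 2.19 with a lower floor, 1.68 with a floor 2 times as high and 0.98 with normexp. These 4 miRNAs were named after their values were seen, and each missed the threshold under some alternatives, passing in 13 of 22 (miR-144-3p), 8 of 22 (miR-142a-3p), 18 of 22 (miR-194-5p) and 14 of 23 (miR-192-5p). Of 3 ciliated airway miRNAs, 0 were tested. In a fluid sample, fewer vesicles from one cell type and less of a miRNA per vesicle cannot be told apart.

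Position on the slide and processing were checked for the members. Slide columns 1 to 4 each held 1 array of each group, and the LPS minus cesarean difference within them was 4.47, -0.15, 1.72 and -0.088 for miR-203-3p. It was 1.25, -1.93, 1.56 and -1.54 for miR-205-5p, and 0.71, 0.18, 1.85 and 0.15 for miR-31-5p. With the column as a block, the limma adjusted p was 0.294, 0.929 and 0.333 for miR-203-3p, miR-205-5p and miR-31-5p. The authors' deposited table, a log2 table normalised separately, gave miR-203-3p 10.10, 5.95, 8.01 and 6.26 on LPS arrays, against 5.54, 6.23, 6.28 and 6.38 on cesarean arrays, with LPS replicates 1 and 3 again the highest. In the authors' deposited table miR-205-5p had 7.53, 4.32, 6.85 and 4.53 on LPS arrays, against 6.14, 6.50, 5.26 and 6.11 on cesarean arrays, and again no LPS array fell within the cesarean range.

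**Figure D5:**
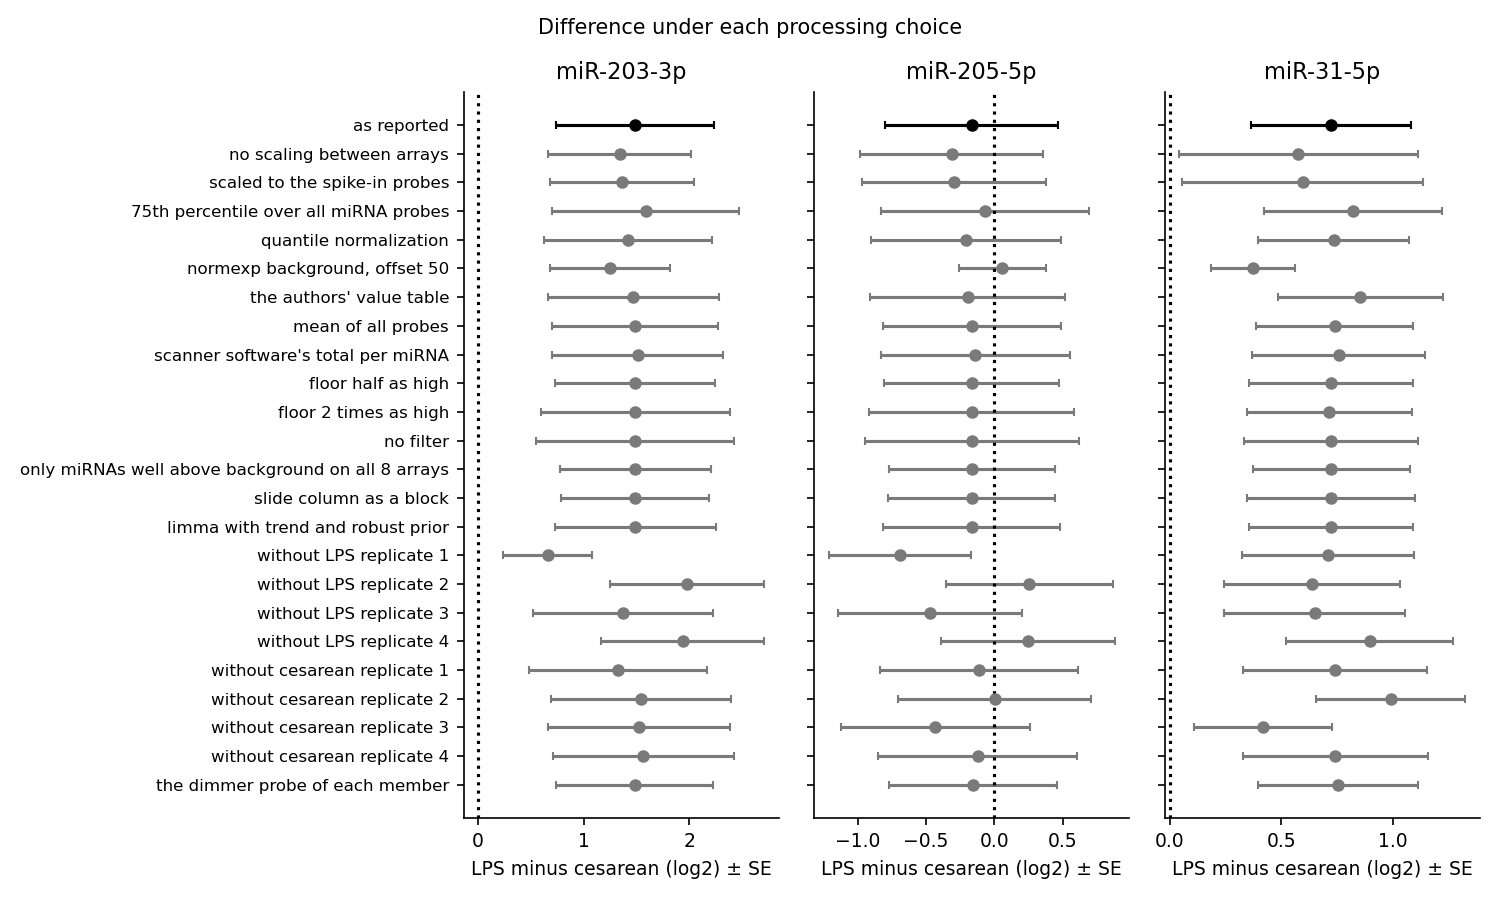
LPS minus cesarean difference (log2, point) with its SE (bar) for the 3 tested members under each processing choice and with each array left out in turn; the top row is the value given in the text and the dotted line is 0. miR-203-3p and miR-31-5p stay above 0 throughout, at 0.66 to 1.98 and 0.37 to 0.99, and miR-205-5p falls on both sides, from -0.69 to 0.26.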

How the data were processed

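The spot intensity values were deposited by the authors as scanner files, read with Agilent Feature Extraction 10.7.1.1 per the file headers (the submitters' processing notes name 9.1) as linear background-subtracted signals. The deposited log2 value table was normalized by the authors by a method not given in the sources used here (column medians 2.14 to 2.15); it served as an alternative. Per the labels' protocols, 0.5 μg of RNA per sample was labelled with Cy3 as cRNA; they do not say how miRNAs, which are not mRNA, were labelled.

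Control spots and spots marked as outliers or non-uniform were left out, 3.00% to 3.48% of miRNA spots per array, and 0 were saturated. A probe was well above background on an array if a share of at least 0.5 of its kept spots were, by the scanner software. The 75th percentile scaling and floor came before log2, and the brightest of a miRNA's probes stood for it. Tested were 470 miRNAs, well above background on at least 3 of 4 arrays of either group, with limma 3.58.1 in R 4.3.3 (lmFit, eBayes, two-sided, Benjamini-Hochberg over all 470, threshold 0.05). The code was tested on simulated data. The number of arrays limits the precision.

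Named were all members, the 3 nearest profiles of each tested member, members of the skin, epithelial and mesenchymal lists that passed and, for such a list without one, the member with the smallest p; markers of other cell types were to be given by list only, and the 4 that passed were named after their values were seen. The members, lists and rules were chosen with earlier results of these data known. The labels pair no samples. Replicate numbers follow the order of deposition. Further software was pandas (2.3.3), numpy (2.4.6) and matplotlib (3.10.9) in Python 3.11.15. Alternatives covered scaling, background, value table, probe summary, floor, filter, slide column, the test's prior and each array left out; the dimmer probe was added after seeing the data.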

Additional observations from a re-analysis of the deposited data

Results flagged for a closer look

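Of 12 sets of 4 arrays examined, the 3 tested members and their 3 ratios in each group, 1 held an array far from the other 3. The log2 ratio of miR-31-5p to miR-205-5p on cesarean replicate 2 was -0.47, against -0.88, -0.88 and -0.85 on cesarean replicates 1, 3 and 4. The gap to the nearest array, as a share of the range, exceeded Dixon's critical value for 4 samples, which chance exceeds in about 1 of 20 such sets. Cesarean replicate 2 had the highest level of both miR-31-5p (6.43) and miR-205-5p (6.90) within its group.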

How the results depend on the processing

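The number of miRNAs past the adjusted threshold, 23, was 1 without scaling, 1 with spike-in scaling, 13 with the percentile over all probes, 36 with quantile normalization, 9 with normexp, 8 with the scanner software's total per miRNA, 2 with no filter, 15 with only miRNAs detected on all 8 arrays, and 1 once slide column entered as a block. With an array left out it ranged from 3 to 79: 79, 4 and 7 without LPS replicates 1, 2 and 3, and 5, 4, 3 and 9 without cesarean replicates 1 to 4. None of the 3 tested members passed under any of the 23 alternatives: the adjusted p ranged from 0.164 to 0.428 for miR-203-3p, 0.402 to 0.999 for miR-205-5p and 0.121 to 0.64 for miR-31-5p. The difference for miR-205-5p, -0.17, reversed to 0.058 with normexp, 0.26 without LPS replicate 2, 0.25 without LPS replicate 4 and 0.00091 without cesarean replicate 2. Leaving out an array gave -0.69 to 0.26 for miR-205-5p, 0.66 to 1.98 for miR-203-3p and 0.42 to 0.99 for miR-31-5p. Normexp gave 0.37 for miR-31-5p. Without scaling the median over all tested miRNAs was -0.20, in place of -0.057. The ratio of miR-203-3p to miR-31-5p reversed to -0.049 without LPS replicate 1 and reached 1.34 without LPS replicate 2. The ratio of miR-203-3p to miR-205-5p kept its direction under its 16 alternatives, from 1.19 to 1.96, with adjusted exact permutation p from 0.0857 to 0.171. A ratio separated alone cannot get under 0.0857 after this adjustment, so these p-values could not decide. Without LPS replicate 2, 3 or 4 the adjusted exact permutation p was 0.171, which is above that limit. Among the untested arms, miR-31-3p differed by 0.035 with the percentile over all probes and at most by 0.56, with the scanner software's total per miRNA. miR-203-5p differed by 0.063 in the authors' value table and at most by 0.16, with normexp. The cause of these shifts was not tested. The labels give no replicate numbers that link samples of the groups, so arrays were paired only by slide column.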
